A study of Mus musculus with 14 samples.

Results

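Ion pumps and ion exchangers were followed at the mRNA level in dorsal hippocampal tissue from WT and THY-Tau22 mice. They were taken as every gene whose name starts with Atp1a, Atp1b, Atp2a, Atp2b, Slc4a, Slc8a, Slc9a, Slc12a or Slc24a and a number, leaving out Slc4a5, a choroid plexus gene. The rule uses names and no measured value, and it found 54 of the 27591 genes listed in either of 2 count tables (54 of 26570 in the basal table and 53 of 25933 in the learning table, which does not list Atp1b4). By role they are 8 subunits of the sodium pump, 3 calcium pumps of the endoplasmic reticulum (SERCA), 4 calcium pumps of the plasma membrane (PMCA), 9 sodium-calcium exchangers, 9 cation-chloride cotransporters, 9 bicarbonate transporters, 9 sodium-proton exchangers and 3 partner proteins that share the prefix without being transporters (Slc9a3r1, Slc9a3r2 and Slc4a1ap).

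All 14 poly-A libraries came from C57BL6/J-background males aged 8 months. THY-Tau22 mice, heterozygous here, carry a mutated human Tau under the Thy1.2 promoter, which drives it in neurons. The basal experiment held 3 libraries of untrained WT and 2 of untrained THY-Tau22 mice. In the learning experiment, mice received injections and were trained in the water maze: 2 WT given saline (WT VEH), 2 THY-Tau22 given carbon nanospheres alone (TAU VEH) and 2 THY-Tau22 given the nanospheres carrying TTK21, an activator of the acetyltransferases CBP and p300 (TAU MOL), beside 3 WT given saline that stayed in the home cage (WT VEH_HC). Because WT mice received saline and TAU VEH mice nanospheres, genotype and vehicle cannot be told apart in any learning comparison between them.

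The sodium pump, made of an alpha and a beta subunit, spends ATP to export sodium and import potassium, and the resulting gradients drive most of the other carriers. SERCA and PMCA pumps, the Slc8 exchangers and the Slc24 exchangers of the plasma membrane clear calcium from the cytosol. The Slc12 cotransporters set intracellular chloride and with it the direction of GABA currents, and the Slc4 and Slc9 families regulate pH. In the hippocampus Slc12a5 (KCC2) extrudes chloride from mature neurons, while Slc12a2 (NKCC1) loads it.

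The basal libraries held 28639121 to 37681155 counts and the learning libraries 24693713 to 52180305, and levels are given as CPM, a library's counts scaled to a common total with edgeR's TMM factors. Thy1, the gene whose promoter the transgene carries, was at 1805 to 2352 CPM in the 6 THY-Tau22 libraries and 786 to 913 CPM in the 8 WT libraries, which separated the genotypes as labelled. Neuronal markers were abundant in each library (5 genes, together 6067 to 8245 CPM). Markers of the choroid plexus, a tissue adjoining the hippocampus, were not spread evenly: 14 markers summed to 1613 and 2490 CPM in WT VEH and to 723.7 and 790.8 CPM in TAU MOL, but to 240.6 and 288.7 CPM in TAU VEH and 79.7 to 240.4 CPM in WT VEH_HC. The libraries also differed in how counts depended on GC content: Spearman's rho across genes between exon GC content and a gene's deviation from the mean of its experiment was 0.08 and 0.28 for the WT VEH libraries and 0.41 to 0.45 for WT VEH_HC, whereas the TAU VEH libraries had −0.62 and −0.41 and the TAU MOL libraries −0.40 and −0.47. In the basal experiment TAU replicate 2 stood apart, with a rho of −0.60 and 1324 CPM of choroid plexus markers, whereas TAU replicate 1 had 0.48 and 405.4 CPM and the WT libraries 0.07 to 0.32 and 273.1 to 442.0 CPM.

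RefSeq promoter windows, from 250 bases before to 50 after the transcription start on GRCm38.p6, were at hand for 38 of the 54 genes in 52 windows. The windows of the 3 members with the largest called increases and the 3 with the largest called decreases in TAU VEH relative to WT VEH (mean of at least 100 counts) are printed 5′ to 3′ with that of Slc12a5, so that the start regions of the genes described below can be compared. Capitals mark the GC box GGGCGG, the E-box CACGTG and the Egr-type site GCGGGGGCG on either strand, whose letters can overlap one another. The windows lie at chr5:24424982-24425281 on the plus strand (Slc4a2), chr8:105966066-105966365 on the minus strand (Slc12a4), chr2:164967738-164968037 on the plus strand (Slc12a5, the downstream of 2 windows), chr13:73763410-73763709 on the plus strand (Slc12a7, the first of 2 windows), chrX:20291778-20292077 on the minus strand (Slc9a7), chr14:14718534-14718833 on the plus strand (Slc4a7) and chr17:81738338-81738637 on the minus strand (Slc8a1).
Slc4a2: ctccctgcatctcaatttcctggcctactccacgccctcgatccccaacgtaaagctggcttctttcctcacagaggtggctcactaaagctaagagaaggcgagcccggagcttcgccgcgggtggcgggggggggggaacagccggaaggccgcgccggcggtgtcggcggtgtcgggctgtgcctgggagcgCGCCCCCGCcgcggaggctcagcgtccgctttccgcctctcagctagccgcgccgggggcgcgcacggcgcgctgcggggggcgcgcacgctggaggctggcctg
Slc12a4: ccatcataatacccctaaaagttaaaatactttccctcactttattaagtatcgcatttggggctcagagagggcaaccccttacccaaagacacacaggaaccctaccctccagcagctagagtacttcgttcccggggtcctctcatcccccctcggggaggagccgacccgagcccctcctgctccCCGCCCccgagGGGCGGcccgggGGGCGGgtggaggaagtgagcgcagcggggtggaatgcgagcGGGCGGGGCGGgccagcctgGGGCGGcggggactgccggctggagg
Slc12a5: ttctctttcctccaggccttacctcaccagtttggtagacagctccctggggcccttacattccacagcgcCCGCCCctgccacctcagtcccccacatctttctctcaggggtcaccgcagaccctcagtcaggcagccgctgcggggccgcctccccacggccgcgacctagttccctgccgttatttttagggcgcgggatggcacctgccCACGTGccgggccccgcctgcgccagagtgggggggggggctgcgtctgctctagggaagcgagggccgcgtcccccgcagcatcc
Slc12a7: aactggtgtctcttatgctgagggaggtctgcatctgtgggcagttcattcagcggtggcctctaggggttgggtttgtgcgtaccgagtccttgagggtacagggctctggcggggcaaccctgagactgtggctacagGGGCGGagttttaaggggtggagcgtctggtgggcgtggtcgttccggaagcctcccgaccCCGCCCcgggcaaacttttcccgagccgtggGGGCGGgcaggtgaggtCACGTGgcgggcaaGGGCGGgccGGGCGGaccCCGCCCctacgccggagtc
Slc9a7: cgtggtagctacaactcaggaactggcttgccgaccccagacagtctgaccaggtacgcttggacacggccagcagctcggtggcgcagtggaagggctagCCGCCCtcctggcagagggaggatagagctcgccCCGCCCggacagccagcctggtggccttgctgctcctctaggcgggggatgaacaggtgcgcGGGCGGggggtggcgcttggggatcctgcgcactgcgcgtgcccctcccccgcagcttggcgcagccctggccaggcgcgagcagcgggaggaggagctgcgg
Slc4a7: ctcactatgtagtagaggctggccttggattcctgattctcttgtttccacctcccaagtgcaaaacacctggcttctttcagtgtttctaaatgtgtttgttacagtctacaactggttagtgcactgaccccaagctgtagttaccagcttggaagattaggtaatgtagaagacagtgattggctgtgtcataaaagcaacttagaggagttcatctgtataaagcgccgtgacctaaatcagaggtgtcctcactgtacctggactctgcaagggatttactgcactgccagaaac
Slc8a1: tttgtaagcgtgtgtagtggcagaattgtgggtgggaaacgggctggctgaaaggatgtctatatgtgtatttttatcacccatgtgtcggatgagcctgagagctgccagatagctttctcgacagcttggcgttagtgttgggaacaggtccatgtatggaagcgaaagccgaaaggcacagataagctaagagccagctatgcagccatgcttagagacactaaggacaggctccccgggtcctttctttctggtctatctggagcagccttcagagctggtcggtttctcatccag

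The 4 printed windows of lower members had a GC content of 72.0%, 65.0%, 68.3% and 66.7%. Among the higher members Slc9a7 had 70.7%, whereas Slc4a7 and Slc8a1 had 45.0% and 50.7% and none of the marked motifs. The first windows had a median GC content of 64.3% in the 10 lower members with a window, 55.3% in the 4 higher members and 63.5% in the 20 that were not called, so those of lower and uncalled members were close. Over the members, 50.0% of windows held a GC box, 15.4% an E-box and 7.69% the Egr-type site, beside 35.7%, 7.15% and 2.91% of all 32851 windows. The member windows were also richer in GC, with a median of 61.7% beside 52.7% of all windows, and its part in these shares was not tested. The cAMP response element TGACGTCA and the Egr-type site GCGTGGGCG were in 0 of the 52 member windows, beside 1.79% and 0.612% of all windows. A GC box was in 8 of the 10 lower members with a window, in 1 of the 4 higher members (Slc9a7) and in 11 of the 20 members with a window that passed no test there. These are matches of letters and say nothing about binding.

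Per kilobase of exon, in WT VEH, Atp1b1, the main neuronal beta subunit of the sodium pump, stood at 704.9 CPM per kb. The beta subunit Atp1b2 was at 243.6, the exchanger Slc8a2 at 205.2, the SERCA pump Atp2a2 at 149.5 and Slc12a5 at 124.3 CPM per kb (means of 2 libraries). The order changed between groups, since in TAU VEH Atp2a2 (159.7) was above Slc8a2 (152.0 CPM per kb). At the other end, 5 members were too low to be tested in either experiment (Atp1b4, Slc12a1, Slc12a3, Slc24a1 and Slc4a9, at most 10 counts in a library), and Atp1a4 and Slc4a1 were tested only in the learning experiment. Tests thus covered 47 members in the basal and 49 in the learning experiment.

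In untrained mice, the first question was whether tauopathy alone was accompanied by other levels of these genes. The levels of the main calcium exchanger and chloride transporter genes did not separate the genotypes. Slc8a2 was at 721.3, 670.8 and 636.9 CPM in WT and at 763.7 and 529.0 CPM in THY-Tau22, and Slc12a5 at 605.6, 572.5 and 592.2 CPM against 665.3 and 533.8 CPM. In each of these genes the 2 THY-Tau22 libraries lay on opposite sides of all WT libraries. With edgeR's quasi-likelihood test, 0 of 47 members passed the limits (an adjusted p under 0.05 together with a log2 fold change beyond 0.2 in either direction), where 0.0245% of all genes tested did. 6 members had an unadjusted p under 0.05, beside 803 of 16324 genes. DESeq2 called 0 members and 41 of 24594 genes, and 5 members and 660 genes had such a p. The lowest adjusted p of a member was 0.901, shared by Slc4a7 among others, whose levels were 25.3, 28.0 and 27.3 CPM in WT and 31.7 and 43.3 CPM in THY-Tau22. The 95% interval of the log2 fold change was −0.38 to 0.25 for Slc8a2, −0.23 to 0.28 for Slc12a5 and −0.17 to 0.32 for Atp1b1, so differences of that size were not detectable with these libraries. The count was also 0 when TAU replicate 2 was left out.

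After training, TAU VEH differed from WT VEH in the sodium pump, in calcium and chloride carriers and in acid-base transporters. 18 of 49 members (36.7%) passed the limits, where 14.4% of all genes tested did. Of these, 14 were lower and 4 higher in TAU VEH with TMM scaling, but the split was 9 lower and 12 higher with library size alone, which shifts the median over all genes by 0.15 on the log2 scale. At a mean count of 1000 or more, 13 of 33 members (39.4%) were called beside 27.2% of all such genes. The difference between these shares was not tested, and the median log2 fold change of the members was −0.14.

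**Figure D1:**
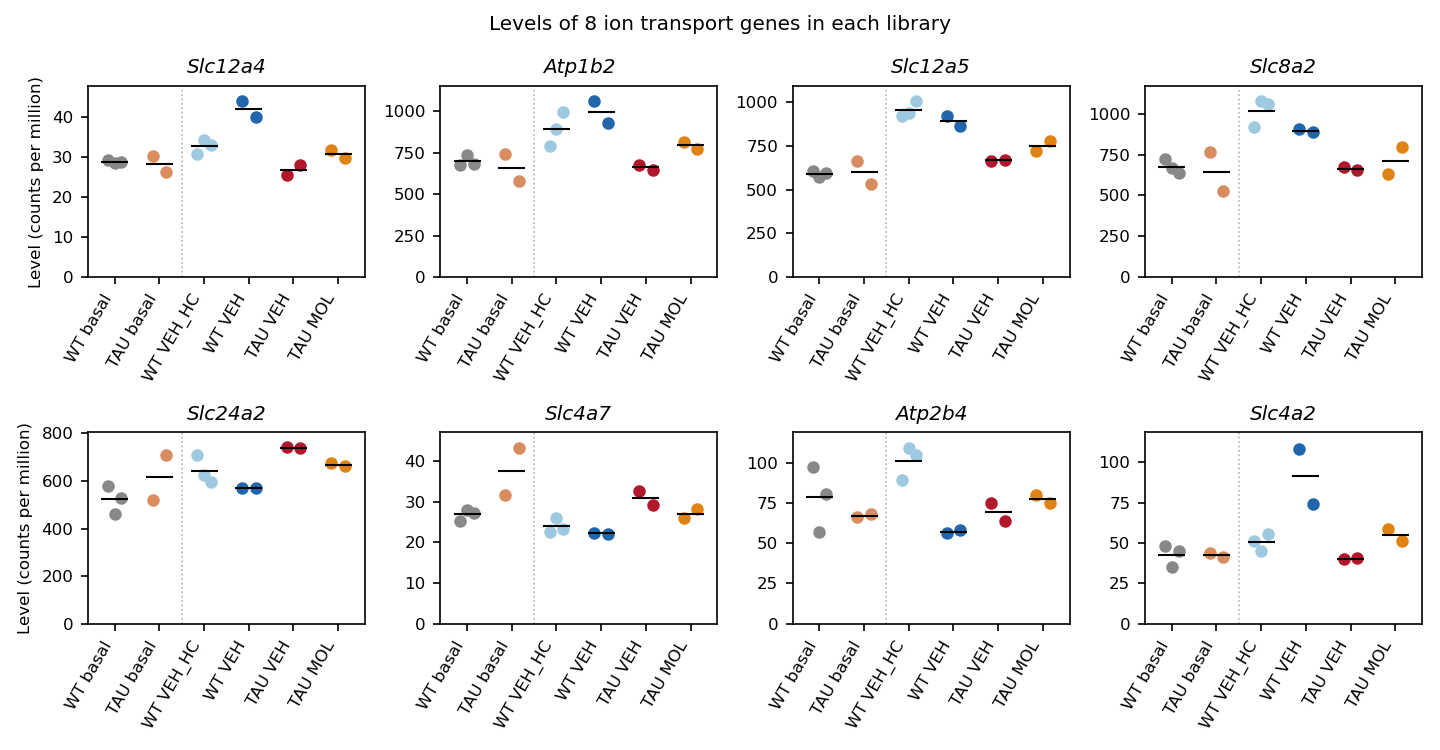
Level of 8 members in each library (points, CPM) with the mean of each group (line), by group, with the basal experiment left of the dotted line. Slc12a4, Atp1b2, Slc12a5 and Slc8a2 were lower and Slc24a2 and Slc4a7 higher in both TAU VEH libraries than in both WT VEH libraries, Atp2b4 was higher in the 3 home cage libraries than in WT VEH, and Slc4a2 was highest in the 2 WT VEH libraries, at 108.2 and 74.4 CPM.

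Within the sodium pump, a beta subunit was called lower. This was Atp1b2, known from astrocytes, which stood at 1063 and 927.2 CPM in WT VEH, 678.2 and 646.9 CPM in TAU VEH, 815.9 and 774.0 CPM in TAU MOL and 792.6, 893.3 and 997.7 CPM in WT VEH_HC. It fell by 0.59 on the log2 scale (SE 0.10, edgeR adjusted p = 0.00295), and with the level of the choroid plexus markers as a covariate its log2 fold change was −0.12 (edgeR adjusted p = 0.788). Atp1b2 was thus lower in each TAU VEH library than in the other 7 libraries of the experiment. Atp1b1 was at 1660 and 1754 CPM in WT VEH and 1635 and 1703 CPM in TAU VEH. The groups overlapped in this gene, and the 95% interval of the log2 fold change was −0.16 to 0.09. The low Atp1a4 and the widely expressed Atp1b3 were not called either (−0.23 and 0.01).

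The make-up of the beta subunits followed from these levels. Per kilobase, Atp1b2 held 26.4% and 23.0% of the summed Atp1b level in WT VEH, 18.8% and 17.6% in TAU VEH, 21.5% and 20.1% in TAU MOL and 20.9%, 23.7% and 24.9% in WT VEH_HC. The share was lower in each TAU VEH than in each WT VEH library, but with 2 libraries a group the exact 2-sided permutation test cannot give a p below 0.333, the value it gave, and the share was not fitted with the choroid plexus covariate. The basal libraries had shares of 17.8% to 18.5% in the 3 WT libraries and of 19.1% and 14.2% in THY-Tau22, which overlapped.

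**Figure D2:**
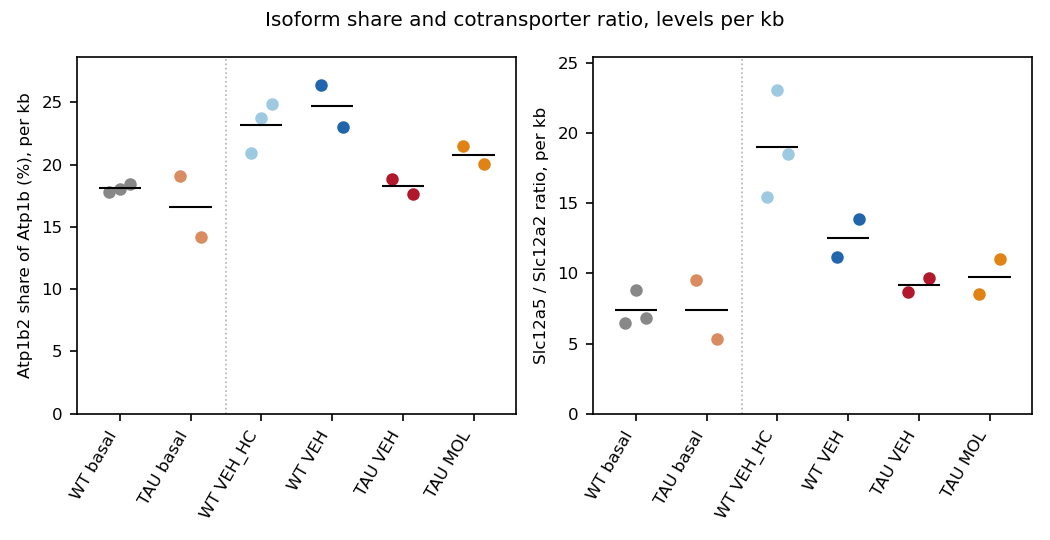
Share of Atp1b2 in the Atp1b level in percent (left) and the ratio of Slc12a5 to Slc12a2 (right), all from CPM per kilobase of exon. Points are libraries and lines group means. In the learning experiment the TAU VEH points lie below the WT VEH points in both panels, for Atp1b2 at 18.8% and 17.6% against 26.4% and 23.0%.

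Whether calcium pumps were called depended on the scaling. Of 3 SERCA and 4 PMCA genes, 0 passed the limits in TAU VEH against WT VEH with edgeR, 3 had an unadjusted p under 0.05 (Atp2a3, Atp2b2 and Atp2b4), and the number with library size alone was 3, all higher (Atp2a2, Atp2b1 and Atp2b4), in a fit that called 3598 of 16820 genes, 2578 of them higher. Atp2a2, the SERCA pump of neurons and most other cells, was at 835.4 and 860.6 CPM in WT VEH and 922.4 and 890.3 CPM in TAU VEH. Atp2b1, a widely expressed PMCA, was at 712.2 and 678.6 CPM against 750.3 and 778.8 CPM, and Atp2b2, a fast neuronal PMCA, at 535.7 and 493.7 CPM against 475.9 and 445.8 CPM. The log2 fold changes of these 3 genes, 0.10, 0.14 and −0.16, had edgeR adjusted p values of 0.448, 0.332 and 0.155.

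Sodium-calcium exchangers moved in both directions, with 6 of 8 tested members called beside 14.4% of all genes, 2 higher and 4 lower with TMM scaling but 2 higher (Slc8a1 and Slc24a2) and 1 lower (Slc24a6) with library size alone. Slc8a2 (NCX2), largely neuronal and per kilobase the most abundant of the 9 exchangers in each group, was at 904.6 and 889.8 CPM in WT VEH, 674.2 and 655.4 CPM in TAU VEH, 629.5 and 793.6 CPM in TAU MOL and 917.0, 1076 and 1058 CPM in WT VEH_HC. It was lower in both TAU VEH libraries by 0.43 on the log2 scale (log2 fold change −0.43 ± 0.10, edgeR adjusted p = 0.0172), but its log2 fold change was −0.08 with the GC correction (edgeR adjusted p = 0.762). Slc8a1 (NCX1) was much less abundant and went the other way, from 22.3 and 21.6 CPM to 27.9 and 31.8 CPM (log2 fold change 0.44 ± 0.13, edgeR adjusted p = 0.0412). In WT VEH_HC its levels of 31.0, 22.7 and 25.5 CPM spanned the range between these groups, and reads of the overlapping Gm11096 may be counted with it. The potassium-dependent exchanger Slc24a2 (NCKX2), a neuronal protein of synaptic terminals, was at 570.8 and 572.3 CPM in WT VEH and rose to 744.4 and 737.1 CPM in TAU VEH (log2 fold change 0.37 ± 0.08, edgeR adjusted p = 0.00856). Its log2 fold change was 0.18 with the GC correction (edgeR adjusted p = 0.272) and 0.14 with the choroid plexus covariate (edgeR adjusted p = 0.728). It was at 673.7 and 663.4 CPM in TAU MOL and at 709.3, 624.7 and 595.8 CPM in WT VEH_HC. Leaving out any of the 4 libraries compared ended the calls of these 3 genes, with log2 fold changes that stayed at −0.46 to −0.41 for Slc8a2, 0.34 to 0.53 for Slc8a1 and 0.36 to 0.38 for Slc24a2. Slc24a3 (−0.22), Slc24a6, an older name of the mitochondrial exchanger (−0.52), and Slc24a5 (−0.72), which may share reads with the overlapping Myef2 and was at 2.03 and 2.25 CPM in WT VEH and 1.34 and 1.25 CPM in TAU VEH, were the other called members, all lower. Slc8a3 and Slc24a4 had log2 fold changes of −0.26 and −0.10 and were not called.

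The chloride extruder of mature neurons was among the called genes of the same comparison. Slc12a5 (chromosome 2, 164786316 to 164825228, mm9) was at 919.2 and 864.8 CPM in WT VEH, 663.6 and 669.9 CPM in TAU VEH, 721.5 and 773.9 CPM in TAU MOL and 916.7, 936.9 and 1005 CPM in WT VEH_HC. It fell by 0.42 on the log2 scale (SE 0.07, edgeR adjusted p = 0.00248). The call held with any library left out, but not with GC content and gene length fitted out (−0.13, edgeR adjusted p = 0.412) or with the choroid plexus covariate (−0.21, edgeR adjusted p = 0.534). Slc12a2 was at 74.8 and 56.7 CPM in WT VEH and 69.5 and 62.8 CPM in TAU VEH, with a log2 fold change of 0.01 and a 95% interval of −0.32 to 0.34. The ratio of Slc12a5 to Slc12a2 per kilobase was 11.2 and 13.9 in WT VEH, 8.68 and 9.69 in TAU VEH, 8.55 and 10.99 in TAU MOL and 15.4, 23.1 and 18.5 in WT VEH_HC. The ratio was lower in both TAU VEH libraries than in WT VEH, a difference that the exact permutation test cannot resolve with 2 libraries a group, since its p cannot go below 0.333. Basal libraries had ratios of 6.45, 8.84 and 6.80 in WT and 9.54 and 5.30 in THY-Tau22. Slc12a5 exons have 58.4% GC and those of Slc12a2 44.2%, and WT VEH and TAU VEH libraries differed in their dependence on GC content as given above. With GC content and gene length fitted out, the log2 fold changes of Slc12a5 and Slc12a2 were −0.13 and −0.14. Slc12a2 is also a transporter of the choroid plexus.

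Other potassium-chloride cotransporters fell as well. Slc12a4 (KCC1), a ubiquitous volume regulator, was at 44.0 and 39.9 CPM in WT VEH, 25.5 and 28.0 CPM in TAU VEH, 31.7 and 29.7 CPM in TAU MOL and 30.6, 34.2 and 33.1 CPM in WT VEH_HC. Its log2 fold change of TAU VEH over WT VEH was −0.65 ± 0.09 (edgeR adjusted p = 0.00115). Slc12a7 (KCC4) was at 9.55 and 9.32 CPM against 5.98 and 6.45 CPM (−0.61 ± 0.18, edgeR adjusted p = 0.0415), a call that was lost when any of the 4 libraries was left out, with log2 fold changes of −0.66 to −0.55. Slc12a9, a member of the family with less known function, changed by −0.48. Slc12a8 (−0.16) was not called.

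Among transporters of acid and base, the largest fall of any member was that of Slc4a2 (AE2), an anion exchanger known from the basolateral membrane of the choroid plexus. Slc4a2 (chromosome 5, 23929655 to 23946768, mm9) was at 108.2 and 74.4 CPM in WT VEH and at 39.8 and 40.9 CPM in TAU VEH (log2 fold change −1.18 ± 0.15, edgeR adjusted p = 0.00114). TAU MOL libraries had 58.8 and 51.0 CPM and WT VEH_HC libraries 51.6, 44.8 and 55.3 CPM, so that the 2 WT VEH libraries were above the other 7. The choroid plexus marker sums were also highest in WT VEH, and all 14 markers were called lower in TAU VEH. Fitted with the mean choroid plexus marker level as a covariate, the log2 fold change of Slc4a2 was −0.45 (edgeR adjusted p = 0.498). Slc4a2 overlaps Fastk, and reads of that gene may be counted with it. Slc4a3 (AE3), a neuronal and cardiac anion exchanger, was at 149.5 and 157.0 CPM in WT VEH and 111.3 and 106.4 CPM in TAU VEH, a log2 fold change of −0.49. The sodium-bicarbonate cotransporter Slc4a7 rose from 22.3 and 22.1 CPM to 32.7 and 29.1 CPM (0.48 ± 0.09, edgeR adjusted p = 0.00560). Its call was lost with the GC correction (0.27, edgeR adjusted p = 0.123), with the choroid plexus covariate (0.29, edgeR adjusted p = 0.553) and without TAU VEH replicate 1 (0.39, edgeR adjusted p = 0.0838). Slc4a10, a neuronal sodium-driven bicarbonate transporter, was at 105.1 and 102.4 CPM in WT VEH and 123.3 and 122.7 CPM in TAU VEH, and its log2 fold change of 0.25 missed the limit (edgeR adjusted p = 0.0655). Slc4a4, the astrocytic sodium-bicarbonate cotransporter, was at 0.22 (edgeR adjusted p = 0.0587), and it and Slc4a10 were called, as higher, with library size alone. The other tested transporters of the family, Slc4a1, Slc4a8 and Slc4a11, were not called (0.78, −0.14 and −0.67).

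Called sodium-proton exchangers included both directions. Slc9a7 (NHE7), an exchanger of the trans-Golgi network, rose from 9.11 and 9.80 CPM to 13.8 and 15.4 CPM (0.63 ± 0.12, edgeR adjusted p = 0.00488), the largest rise of a called member. That call was lost without WT VEH replicate 1 (0.58, edgeR adjusted p = 0.0501) and with the choroid plexus covariate (0.30, edgeR adjusted p = 0.622). Slc9a5, a neuronal exchanger of the plasma membrane and endosomes, was called lower at −0.42. Slc9a8 (−0.21) and Slc9a4 (0.37) were not called, though Slc9a4 was called, as higher, with library size alone. The 3 partner proteins, of which Slc9a3r1 and Slc9a3r2 are scaffolds of the membrane, were not called (−0.21, −0.29 and 0.05 for Slc4a1ap).

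**Figure D3:**
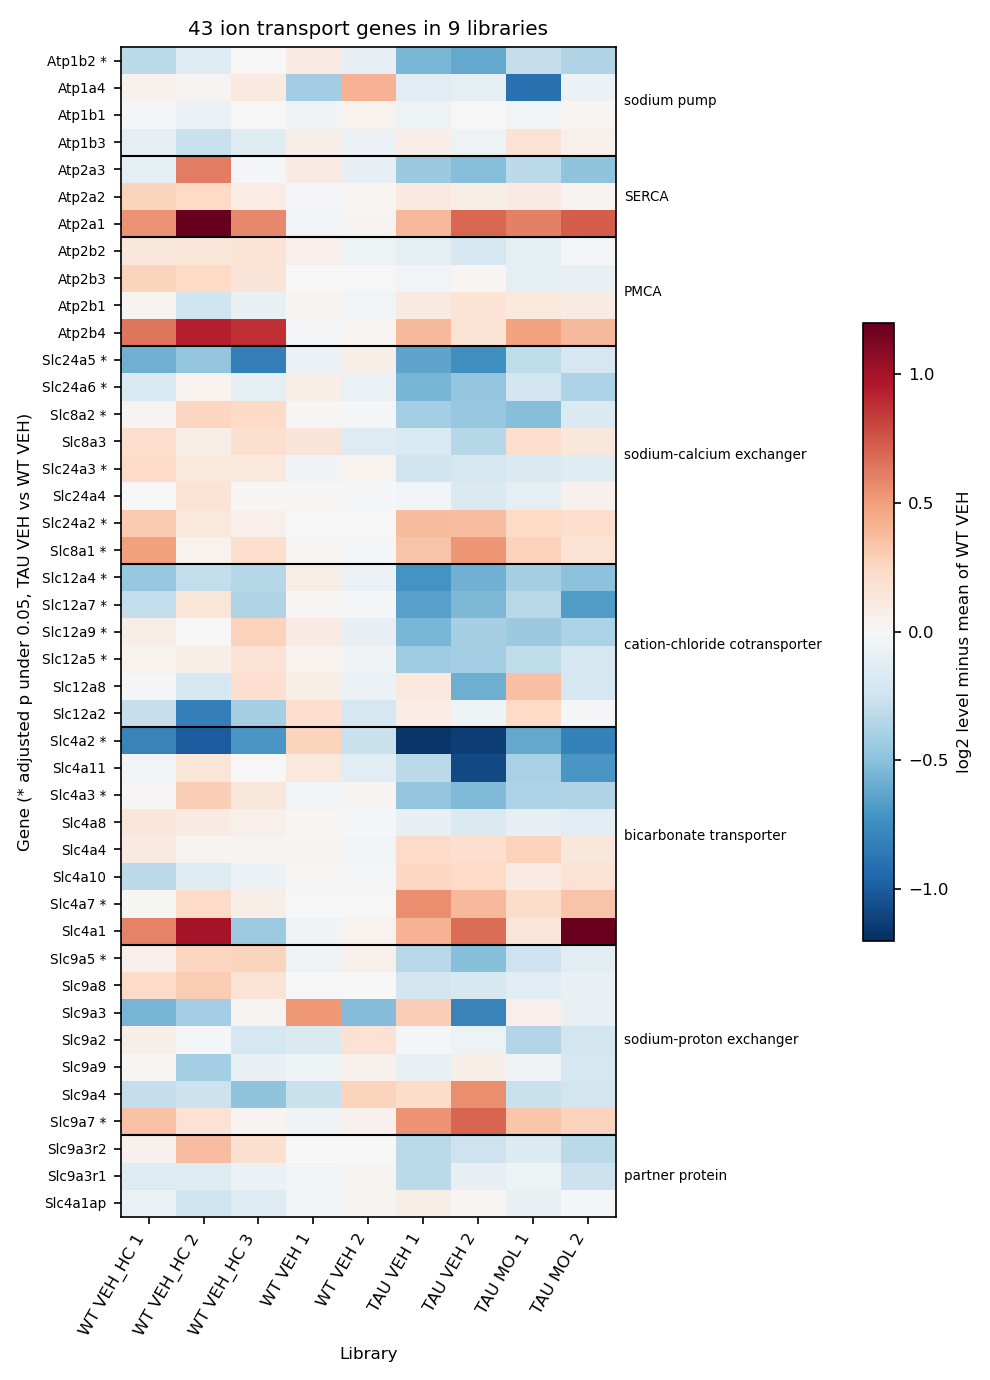
Level of 43 of the 49 members tested in the learning experiment (rows, grouped by role) in each of the 9 libraries (columns), as the log2 of CPM plus 0.1 minus the mean of the 2 WT VEH libraries. Blue is lower and red higher than WT VEH, and an asterisk marks the 16 members among them called in TAU VEH against WT VEH, of which 12 are lower and 4 higher with TMM scaling (7 lower and 10 higher with library size alone).

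The home cage libraries were also set beside the same 2 TAU VEH libraries that the calls rest on, so the counts are a description and no independent check. Of the 14 members called lower in TAU VEH, 13 were also higher in each of the 3 WT VEH_HC libraries than in both TAU VEH libraries, the exception being Slc24a5, as were 89.8% of all genes called lower. Of the 4 higher members, 3 were lower in each home cage library than in both TAU VEH libraries, and Slc8a1 was not, beside 84.9% of all genes called higher. The WT VEH_HC libraries had choroid plexus marker sums of 79.7 to 240.4 CPM, and rho values with GC content of 0.41 to 0.45, where TAU VEH had −0.62 and −0.41, and the part of either in these counts was not tested. Their Slc12a5 levels overlapped those of WT VEH and their Slc8a2 levels were above them. They differ from TAU VEH in training as well as in genotype and vehicle.

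**Figure D4:**
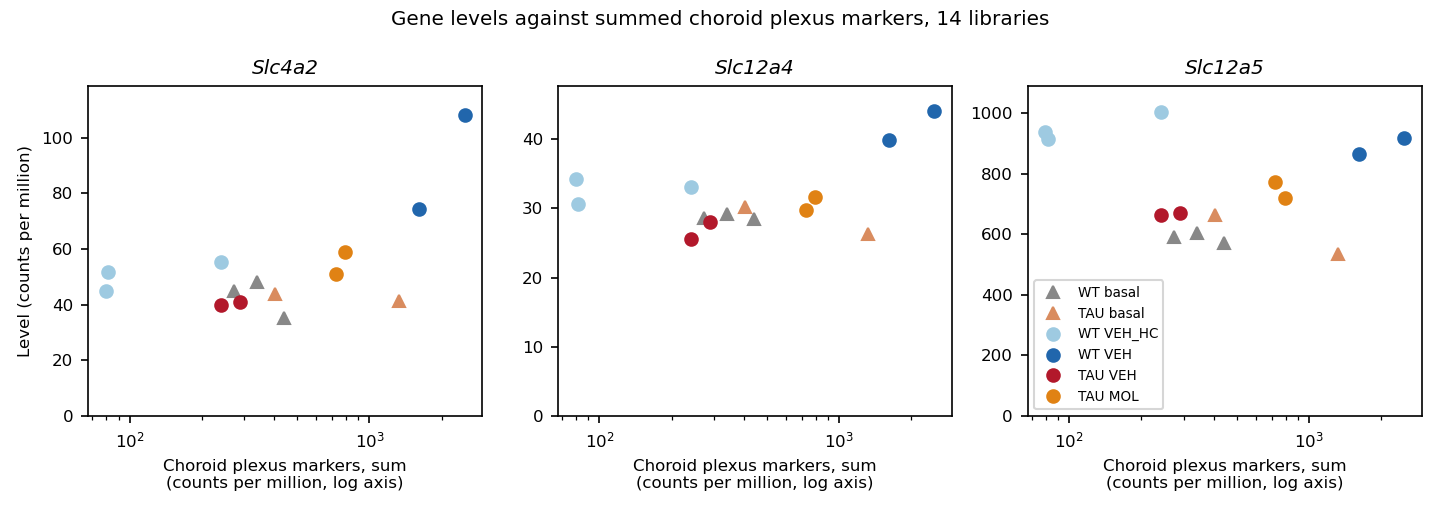
Level of Slc4a2, Slc12a4 and Slc12a5 (CPM) against the sum of 14 choroid plexus markers (CPM, log axis) in the 14 libraries, with triangles for the basal experiment. Slc4a2 and Slc12a4 were highest in the 2 WT VEH libraries, which had the largest marker sums (1613 and 2490 CPM), whereas Slc12a5 was at 916.7 to 1005 CPM in WT VEH_HC, where the sums were 79.7 to 240.4 CPM. With those markers as a covariate, its log2 fold change of TAU VEH over WT VEH was −0.21 (edgeR adjusted p = 0.534).

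GC content went with the direction of the fold change in this comparison. Of the 32 members whose exons have at least 50% GC, 30 had a log2 fold change below 0 (23 with library size alone), with 13 called lower and 0 higher. Of the 17 with less than 50% GC, 15 were above 0 (16 with library size alone), with 4 called higher and 1 lower (Slc24a5). Spearman's rho between exon GC content and log2 fold change was −0.63 across the 49 members and −0.52 across 16780 genes, which share their libraries and are not independent replicates. When GC content and gene length were fitted out in each library, 444 of 16820 genes were called in place of 2423, and 4 of the 18 members were among them: Slc4a2 (−0.84), Atp1b2 (−0.54), Slc12a4 (−0.39) and Slc9a7 (0.52). Each WT VEH library had a higher rho than each TAU VEH library, so the groups and this dependence cannot be told apart.

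**Figure D5:**
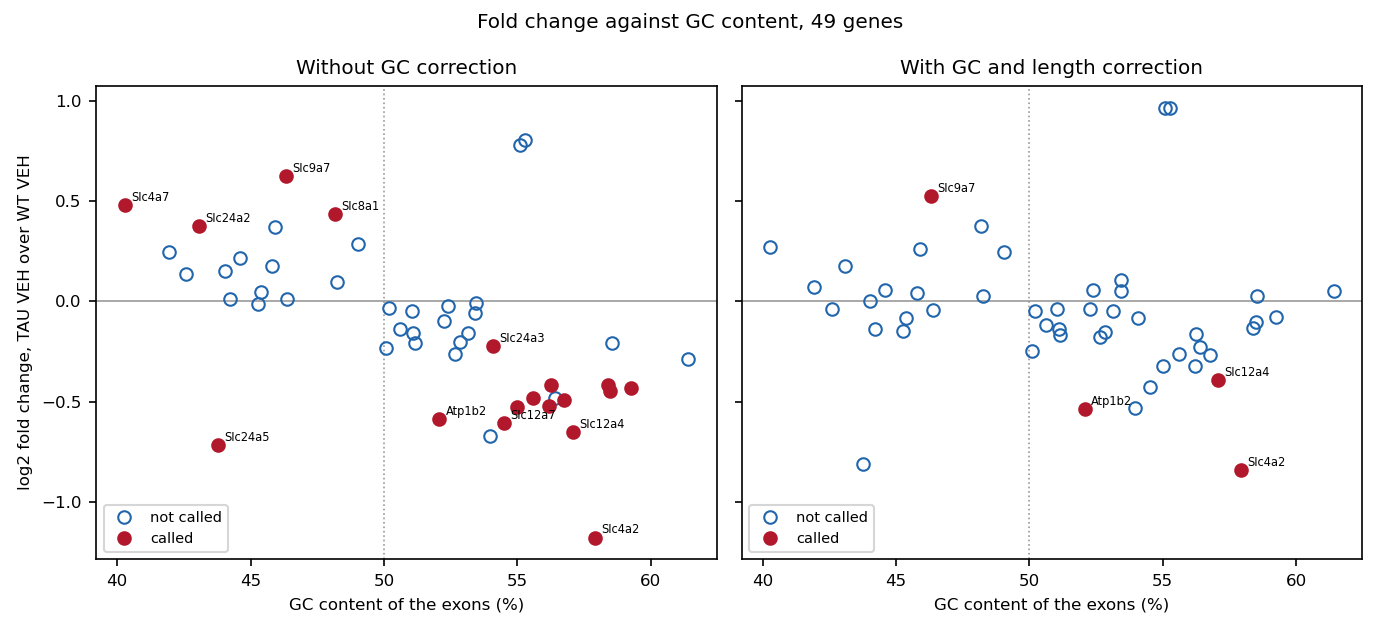
Log2 fold change of TAU VEH over WT VEH against the GC content of the exons (percent) for the 49 members, before (left) and after (right) fitting out GC content and length. Filled points passed the limits and open points did not. On the left 18 points are filled, and those called lower lie at a GC content of at least 50% apart from Slc24a5, and on the right 4 are filled.

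With the choroid plexus marker level as a covariate, 0 of all 16820 genes were called in this comparison with edgeR, so the loss of calls was not particular to the members. Of these genes 2153 had an unadjusted p under 0.05, among them 9 members. The median log2 fold change of the members was −0.16 in that fit, Slc8a2 had −0.39 (edgeR adjusted p = 0.506), Slc12a4 −0.49 (edgeR adjusted p = 0.368) and Slc12a7 −1.04 (edgeR adjusted p = 0.363). Markers of CA1 were lower too (3 of 5 called, sum 578.7 and 613.7 CPM in TAU VEH against 1052 and 982.1 CPM in WT VEH), of general neuronal markers 1 was higher and 2 lower, and 2 of 7 astrocyte markers (Gfap and Aqp4) were higher. Their part in the values of the members was not tested, and in bulk tissue fewer cells of a type and less RNA per cell cannot be told apart. Fewer members, and fewer of all genes, were called when any library compared was left out, which leaves 1 in its group. Without TAU VEH replicate 1 or 2 the members' median log2 fold change was −0.18 and −0.09. Without WT VEH replicate 1 or 2 it was −0.09 and −0.15.

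Subunits and regulators of the same machinery, from a list of 34 genes that are not members, were looked at beside them, and 31 were tested. In TAU VEH against WT VEH 1 was higher and 7 lower, where 14.4% of all genes tested were called. The FXYD subunits that tune the sodium pump, Fxyd1 (−0.49) and Fxyd7 (−0.44), were lower, as was Bsg (−0.29), a subunit of PMCA complexes. Wnk2 (−0.55), a kinase of the pathway that phosphorylates the Slc12 cotransporters, and Cab39l (−0.46), a scaffold of such kinases, were lower, and of the carbonic anhydrase family Car7 (−0.48) and Car11 (−0.60) were lower and Car8, which lacks enzymatic activity, was higher (a mean of 2.66 CPM against 1.19 CPM, edgeR adjusted p = 0.0153). In the basal comparison 0 of the 31 were called with edgeR.

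Whether TTK21 shifted these genes in tauopathic mice was asked by comparing TAU MOL with TAU VEH. Here 0 of 49 members passed the limits with edgeR, as did 0% of all genes tested, 7 members had an unadjusted p under 0.05, and DESeq2 called 0 members with 6 such members. The lowest adjusted p of a member was 0.353, for Slc8a3 (NCX3), which was at 16.5 and 14.8 CPM in TAU VEH and 21.7 and 20.7 CPM in TAU MOL. The members' log2 fold changes ran from −0.64 to 0.45. The largest fall was in Slc9a4, at 12.9 and 16.4 CPM in TAU VEH and 9.17 and 9.50 CPM in TAU MOL. Among the main members, Atp1b2 was at 678.2 and 646.9 CPM in TAU VEH and 815.9 and 774.0 CPM in TAU MOL. Its 95% interval of the log2 fold change was 0.06 to 0.46 before any adjustment (edgeR adjusted p = 0.720). For Slc12a5 the interval was 0.03 to 0.30 (edgeR adjusted p = 0.758). After adjustment over all genes neither of these differences passed the limits. Of the 32 members with at least 50% GC, 29 had a log2 fold change above 0 (26 with library size alone). Of the 17 with less than 50% GC, 12 were below 0 (12 with library size alone). Choroid plexus marker sums were 723.7 and 790.8 CPM in TAU MOL and 240.6 and 288.7 CPM in TAU VEH. With their level as a covariate 0 members were called and 3 had an unadjusted p under 0.05, beside 0 and 1138 of 16820 genes. The members' median was 0.06 on the log2 scale with and without it, while Atp1b2 had a log2 fold change of 0.03 (edgeR adjusted p = 0.956) and Slc12a5 one of 0.06 (edgeR adjusted p = 0.894). Of the 31 subunits and regulators 0 were called with edgeR.

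Set against the same WT VEH libraries, TAU MOL differed in 7 of 49 members, where 5.63% of all genes tested were called, and 6 were lower and 1 higher with TMM scaling but 4 lower and 5 higher with library size alone, which shifts the median over all genes by 0.12. The comparisons of TAU VEH and TAU MOL with WT VEH share those 2 libraries, so they are not independent of each other. Among the lower members were Slc4a2 (log2 fold change −0.73 in TAU MOL and −1.18 in TAU VEH), Slc12a4 (−0.45 and −0.65), Slc12a9 (−0.42 and −0.48) and Slc4a3 (−0.36 and −0.49). Higher was Atp2b4 (PMCA4), a calcium pump at 56.3 and 58.0 CPM in WT VEH and 79.7 and 75.0 CPM in TAU MOL (0.44 ± 0.10, edgeR adjusted p = 0.0316). Its levels in TAU VEH were 74.9 and 64.1 CPM, a log2 fold change of 0.29 over WT VEH that missed the limit (edgeR adjusted p = 0.0922). Slc12a5 was at −0.25 (edgeR adjusted p = 0.0565) and Slc8a2 at −0.33 (edgeR adjusted p = 0.0906). Called lower were 1 of 5 CA1 markers (Fibcd1), 2 of 5 CA3 markers (Bok and Homer3), 1 of 5 neuronal (Slc17a7) and 1 of 5 endothelial markers (Kdr). Of 7 astrocyte markers 1 was called higher (Gfap). The part of these markers in the values of the members was not tested. 10 of 14 choroid plexus markers were lower in TAU MOL than in WT VEH, and the count of called members was 0 with the GC correction, with the choroid plexus covariate and when any of the 4 libraries was left out. Those fits called few genes of any kind, 31 and 2 of 16820 and 2 to 4 of all genes tested. Of the 31 subunits and regulators 4 were lower, beside the 5.63% of all genes called: Fxyd7 (−0.41), Bsg (−0.30), Wnk2 (−0.42) and Car11 (−0.42).

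The effect of training in WT mice was addressed by comparing WT VEH with WT VEH_HC. 5 of 49 members passed the limits, where 8.40% of all genes tested were called, and 2 were higher and 3 lower after training with TMM scaling but 3 higher and 1 lower with library size alone. The largest difference among called members was in Slc4a2, which was higher in WT VEH by 0.85 on the log2 scale (SE 0.14, edgeR adjusted p = 0.00642), and Slc12a4 was higher by 0.36 (SE 0.08, edgeR adjusted p = 0.0213). All 14 choroid plexus markers were higher in WT VEH as well, and with their level as a covariate the log2 fold change of Slc4a2 was −0.18 (edgeR adjusted p = 0.986) and that of Slc12a4 0.12 (edgeR adjusted p = 0.986). The part of that tissue was not otherwise tested. Atp2b4 was at 89.4, 109.5 and 105.0 CPM in WT VEH_HC and at 56.3 and 58.0 CPM in WT VEH. Each home cage library was above each trained one, the log2 fold change was −0.83 ± 0.10 (edgeR adjusted p = 0.000868), and the call held without any one of the 5 libraries and with the GC correction (−0.74, edgeR adjusted p = 0.00151). With the choroid plexus covariate its log2 fold change was −0.84, of the same size, but with an adjusted p of 0.975 in a fit in which 0 of all genes were called (749 had an unadjusted p under 0.05). In the basal experiment Atp2b4 was at 97.7, 57.3 and 80.7 CPM in WT and 66.3 and 68.0 CPM in THY-Tau22, so the 3 untrained WT libraries there varied over a similar range.

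The other 2 members called after training were near the limits. Atp2b3 (PMCA3), a neuronal calcium pump, was at 237.2, 231.7 and 218.1 CPM in WT VEH_HC and 197.3 and 195.6 CPM in WT VEH (−0.22 ± 0.06, edgeR adjusted p = 0.0426). Slc9a8 (NHE8), an exchanger of the Golgi and plasma membrane, was at 62.4, 65.5 and 59.7 CPM against 53.4 and 52.8 CPM (−0.24 ± 0.06, edgeR adjusted p = 0.0447). In neither gene did the groups overlap, but each call was lost in 4 of the 5 fits that left out 1 library, with the GC correction and with library size alone. Atp1b1 and Slc12a5 had log2 fold changes of 0.03 and −0.10. Slc12a2 was at 53.9, 36.8 and 49.4 CPM in WT VEH_HC and 74.8 and 56.7 CPM in WT VEH (0.50 ± 0.15, edgeR adjusted p = 0.0634). With WT VEH_HC replicates 1, 2 and 3 left out in turn, the count of called members was 2, 3 and 9. Those fits called 614 of 16752, 952 of 16704 and 2798 of 16735 genes tested. Without WT VEH replicate 1 or 2, which leaves 1 library in the group, the members' median log2 fold change was −0.11 and −0.05. Fewer members and fewer of all genes were called there. Beside the 8.40% of all genes called, 5 of the 31 subunits and regulators were higher (Fxyd1 at 0.50, Cab39l at 0.81, Stk39 at 0.33, Car12 at 0.32 and Car14 at 0.74) and 2 lower (Car10 at −0.48 and Tesc at −0.33).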

How the data were processed

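RNA-seq counts of 14 libraries were analysed in 2 experiments, 5 basal and 9 learning. The authors prepared unstranded libraries of poly-A RNA and mapped single-end reads on mm9 with TopHat2 2.0.10 and Bowtie2 2.1.0 and counted reads per Ensembl gene with HTSeq 0.5.4p3. The deposited raw counts per gene, whole numbers without normalization, were used for all tests. The normalized signal the authors deposited beside them, counts divided by 1 factor per library, was read only to check the columns. 0 columns had no sample.

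The members and the gene lists (choroid plexus markers, markers of other brain regions and cell types, Thy1, and 34 subunits and regulators) were chosen with earlier results of these data known. edgeR 4.0.16 (R 4.3.3) was used: TMM factors, filterByExpr, the quasi-likelihood F test and Benjamini-Hochberg adjustment over all genes tested, with the study's limits for a call, an adjusted p under 0.05 and a log2 fold change beyond 0.2 in either direction. The basal libraries and the 9 learning libraries were fitted apart. The tests were checked on simulated counts. CPM values carry TMM scaling. Exon length and GC content, at hand for 99.8% of genes tested, came from GENCODE on mm9, and promoters from RefSeq. The study counts the learning libraries as mice and gives the basal groups as 3 WT and 2 THY-Tau22 mice. edgeR's common dispersion gave a coefficient of variation of 0.129 for basal and 0.084 for learning libraries. Replicate numbers did not pair the libraries: correlations of same-numbered deviations ran from −0.16 to 0.24. Values in every library are given for the 3 largest increases and decreases among called members with a mean of at least 100 counts and for the main members by role, with values of other members only where the text turns on them. Some members enter the counts and are not reported here by name.

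Alternatives were DESeq2 1.42.0, edgeR with DESeq2 size factors or with library size alone, a minimum of 1 count in place of the filter or of a mean of 10 counts, only the groups compared, the replicate block, no fold limit, a loess correction (span 0.3) for GC content and length, the choroid plexus covariate, and leaving out each library. Figures were made with Python 3.11.15 and matplotlib 3.10.9. The authors excluded 3 further learning libraries, which were not analysed here.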

Additional observations from a re-analysis of the deposited data

Results flagged for a closer look

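In 3 of 47 members, beside 1.33% of the 16216 genes tested in both experiments, both basal THY-Tau22 libraries were above all WT libraries and both TAU VEH libraries were below both WT VEH libraries. They were Atp2a3 (SERCA3), with log2 fold changes of 0.36 in the basal and −0.48 in the learning comparison, Slc24a5 (0.80 and −0.72) and Slc4a11 (0.71 and −0.67). The difference between the experiments was not tested. Slc24a5 and Slc4a11 were at most at 3.13 CPM in any library, and of the 6 values only that of Slc24a5 in the learning comparison passed the limits.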

How the results depend on the processing

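The counts of called members, 0 (basal), 18 (TAU VEH vs WT VEH), 0 (TAU MOL vs TAU VEH), 7 (TAU MOL vs WT VEH) and 5 (WT VEH vs WT VEH_HC), stayed within 1.5 times the value given except as follows. With the GC and length correction they were 4, 0 and 3 in the comparisons that had calls, beside 444, 31 and 767 of 16820 genes. With the choroid plexus covariate they were 0 in each, beside 0, 2 and 0 of 16820 genes. Without a filter TAU MOL vs TAU VEH had 3, TAU MOL vs WT VEH 13 and WT VEH vs WT VEH_HC 11. Those fits called 233, 1590 and 2686 of 25933 genes. DESeq2 gave 13 for TAU MOL vs WT VEH, beside 1324 of 25933 genes. A fit of only the groups compared gave 12 there, beside 1490 of 16209 genes. For WT VEH vs WT VEH_HC it gave 2, beside 310 of 16426 genes. Leaving out 1 library gave 8 to 12, 0 to 0 and 1 to 9 in the comparisons that had calls, where a lone library was assumed to vary like the other groups. With the replicate block, whose numbers do not pair the libraries, the counts were 0, 21, 0, 10 and 10. Over all genes they were 37, 2794, 0, 1321 and 3000. The causes were not tested. Slc4a2 in WT VEH vs WT VEH_HC changed sign to −0.18 with the choroid plexus covariate. Of 313 values of 22 gene results under the alternatives, 219 kept direction and call, 93 kept direction only and 1 reversed, and 15 of 22 lost the call with the GC correction.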
